A study of Mus musculus with 25 samples.

Results

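The response of mouse lung to chest radiation was measured in animals that also received FTY720, as the difference between irradiated and unirradiated animals on the same drug. The samples were chosen by their titles: 3 arrays of the radiation+FTY group and 3 arrays of the FTY group, which are 6 of the 25 arrays of the series, described here across all 12937 genes tested. The radiation+FTY mice received a single dose of 25 Gy to the thorax and 0.1 mg/kg FTY720 by intraperitoneal injection 2 times a week. The FTY mice received the same injections and no radiation. For comparison, 3 mice received radiation alone and 4 control mice phosphate-buffered saline, 3 received radiation with fTyS and 3 fTyS, and 3 received radiation with SEW and 3 SEW, at the same dose and schedule of each compound. fTyS is (S)-FTY-phosphonate, which carries a phosphonate where phosphorylated FTY720 has its phosphate. SEW-2871, here SEW, activates the S1P receptor S1pr1 selectively and is not built like sphingosine. All groups were female wild-type C57BL/6J mice of 14 to 17 weeks and 20 to 25 g, and 6 µg of total lung RNA went on each Affymetrix array. The labels do not give the time between radiation and collection, the hour of collection or a batch. The p-values here rest on the spread between mice within a group, pooled over all 8 groups.

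FTY720 (fingolimod) gains a phosphate in the body, and that form binds receptors for sphingosine 1-phosphate (S1P), a lipid that keeps the endothelial barrier of lung vessels tight and guides lymphocytes out of lymph nodes. Sustained exposure to phosphorylated FTY720 removes S1pr1 from the cell surface. Ionizing radiation breaks DNA, which activates the transcription factor p53 and its target genes, and radiation of the chest is followed by inflammation of the lung and later by fibrosis.

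Levels are given as log2(signal + 16), where signal is the authors' deposited intensity of a probe set, so a difference of 1 is about 2-fold for bright genes and understates the change of dim ones. The medians of the 6 arrays lay between 118.86 and 124.62 signal units, and the number of arrays limits the precision. Type 2 cell genes, which make and export surfactant, were high on all 6 arrays, with list means of 11.72, 11.86 and 11.84 on the radiation+FTY arrays against 11.82, 11.93 and 11.63 on the FTY arrays. Some arrays stood apart from their own group in genes of other tissues. The mean of 18 skeletal muscle genes was 11.46, 6.87 and 11.38 on the radiation+FTY arrays, against 6.80, 6.48 and 6.55 on the FTY arrays. Radiation+FTY arrays 1 and 3 were thus high in muscle RNA, and array 1 was also high in keratin genes of squamous epithelium, with list means of 10.36, 7.29 and 7.08 on the radiation+FTY arrays against 7.33, 6.99 and 7.65 on the FTY arrays. FTY array 3 was high in T cell genes, with list means of 7.92, 7.63 and 7.58 on the radiation+FTY arrays against 7.46, 7.61 and 9.18 on the FTY arrays, and in cell cycle genes, with 8.15, 7.76 and 7.95 against 7.72, 7.75 and 9.10. Outside the FTY groups, control array 4 went against its label in p53 target genes: their mean was 9.59 to 9.61 on the arrays of radiation alone, against 9.21, 9.28, 9.17 and 9.68 on the 4 control arrays, so counts that use the controls are given with and without it. It also enters the common estimate of spread, and without it 1909 genes were called between radiation+FTY and FTY. The part of these tissues in the results was not tested beyond the fits named beside each result, and in whole lung fewer cells of a type and less RNA per cell cannot be told apart.

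**Figure D1:**
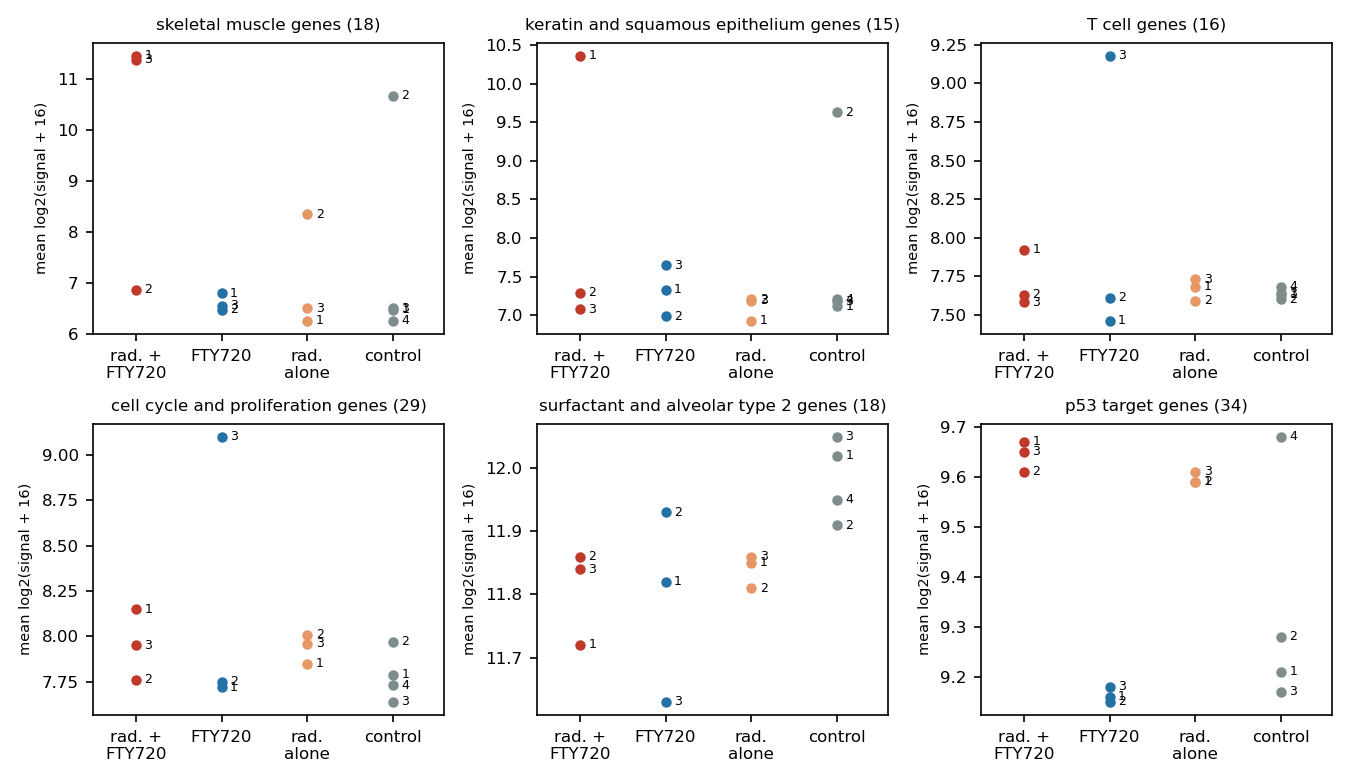
Mean log2(signal + 16) of 6 gene lists (y axis) on each array, with arrays numbered by replicate, in the radiation+FTY, FTY, radiation and control groups. Skeletal muscle genes averaged 11.46 and 11.38 on radiation+FTY arrays 1 and 3 and 10.68 on control array 2, T cell genes averaged 9.18 on FTY array 3, and p53 target genes averaged 9.61 to 9.67 on the radiation+FTY arrays and 9.15 to 9.18 on the FTY arrays.

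Irradiated lungs on FTY720 differed from unirradiated lungs on FTY720 in many genes, with some damage-response, neutrophil and clock-controlled genes higher and some heat shock and immediate early genes lower. At an adjusted p of at most 0.05 in limma, 1826 genes were called, 14.1% of those tested, of which 1181 (9.13%) were higher and 645 (4.99%) lower in radiation+FTY. Counts of called members of a gene list, given below, are to be read beside these shares. The split depended on scaling, with 945 higher and 720 lower after quantile normalization and 906 higher and 640 lower after median centring. Without radiation+FTY array 3 it was 808 higher and 724 lower. The changes were mostly small. The median size of a called log2 difference was 0.37, and 79 called genes differed over 2-fold, 53 higher and 26 lower. Over all tested genes the median difference was 0.043, and the 3 arrays of one group lay wholly above or below the 3 of the other for 31.8% of genes. The count depended on single arrays: it was 961 without radiation+FTY array 1, 1043 without array 2, 1128 without FTY array 1 and 932 without FTY array 2, and 739 without both radiation+FTY array 1 and FTY array 3. Of the 147 genes named here that were called, 79 were not called without both of these arrays and 71 were not called in a fit of the 6 arrays alone.

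Target genes of p53, the factor activated by broken DNA, were higher in the irradiated lungs. Of 34 target genes tested, 13 rose and 2 fell with radiation under FTY720, with a median difference of 0.37 beside 0.043 over all genes. Psrc1, which encodes a mitotic spindle protein, had 8.67, 8.73 and 8.76 on the radiation+FTY arrays, against 5.98, 6.53 and 6.83 on the FTY arrays, a rise of 2.27 ± 0.43 (log2, SE, adjusted p = 0.00281). Eda2r, a receptor of the tumour necrosis factor receptor family, had 8.53, 8.43 and 8.72 in radiation+FTY, against 6.68, 6.59 and 6.64 in FTY, and rose by 1.93 ± 0.37 (adjusted p = 0.00318). In both genes every irradiated lung was well above every unirradiated one, and the 3 irradiated lungs lay close together. These values are of the brightest probe set, and the other probe set of Psrc1 had a difference of 0.37, with 0.91 for the mean of both (adjusted p = 0.00551). Phlda3, a repressor of Akt signalling, had 11.22, 10.99 and 11.05 in radiation+FTY against 9.96, 9.70 and 10.18 in FTY, a rise of 1.14 ± 0.25 (adjusted p = 0.00702). Ccng1, cyclin G1, had 12.16, 11.82 and 12.08 in radiation+FTY against 11.13, 10.95 and 11.10 in FTY, a rise of 0.96 ± 0.20 (adjusted p = 0.00449). Aen, an apoptosis-enhancing nuclease, had 9.59, 9.51 and 9.55 in radiation+FTY against 8.64, 8.57 and 8.53 in FTY, a rise of 0.97 ± 0.16 (adjusted p = 0.00139). The groups did not overlap in any of these genes, though Aen had 0.51 with its probe sets averaged (adjusted p = 0.00781). Zmat3, an RNA-binding protein of the p53 programme, had 10.57, 10.69 and 10.69 in radiation+FTY against 9.80, 9.79 and 9.67 in FTY (0.90 ± 0.17, adjusted p = 0.0024). Sesn1, a sestrin that restrains growth signalling under stress, rose by 0.45 on its brightest probe set, with -0.05 to 0.13 on the 3 others and no call for their mean (adjusted p = 0.254), and Tigar, a regulator of sugar breakdown, by 0.50. Ddit4l, a stress-induced inhibitor of growth signalling, had 10.11, 9.10 and 9.82 in radiation+FTY against 7.70, 7.57 and 7.73 in FTY, a difference of 2.01 ± 0.55 (adjusted p = 0.0204) that was no longer called without FTY array 1 or 2 or radiation+FTY array 1 or 3 (adjusted p up to 0.081).

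The best known target genes did not all move. Cdkn1a, which encodes the cell cycle inhibitor p21, had 11.67, 11.93 and 11.92 in radiation+FTY against 11.61, 11.30 and 11.10 in FTY, a difference of 0.51 whose 95% interval ran between -0.30 and 1.31 (adjusted p = 0.408). Mdm2, the ligase that degrades p53, had 10.21, 10.21 and 10.42 in radiation+FTY against 10.30, 10.33 and 10.31 in FTY (difference -0.03, adjusted p = 0.839, with 0.14 on its other probe set). The irradiated lungs thus lay above the others for Cdkn1a, though within its error, and to both sides of them for Mdm2. Fas, a death receptor, was lower, with 9.05, 9.18 and 9.51 in radiation+FTY against 9.90, 9.91 and 9.68 in FTY (-0.59, adjusted p = 0.0298), and Ddb2, a sensor of damaged DNA, was lower by a log2 difference of -0.38 (adjusted p = 0.0372). Both calls were lost without single arrays: neither gene was called without FTY array 2 or radiation+FTY array 1 or 2, and the highest adjusted p was 0.127 for Fas and 0.141 for Ddb2, which was also not called with its probe sets averaged (-0.20). The higher genes numbered 11 to 14 whichever array of these groups was left out, while without control array 4 there were 15. Among them 9 (Ccng1, Eda2r, Phlda3, Aen, Zmat3, Sesn1, Psrc1, Ei24 and Abhd4) were called whichever radiation+FTY or FTY array was left out.

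**Figure D2:**
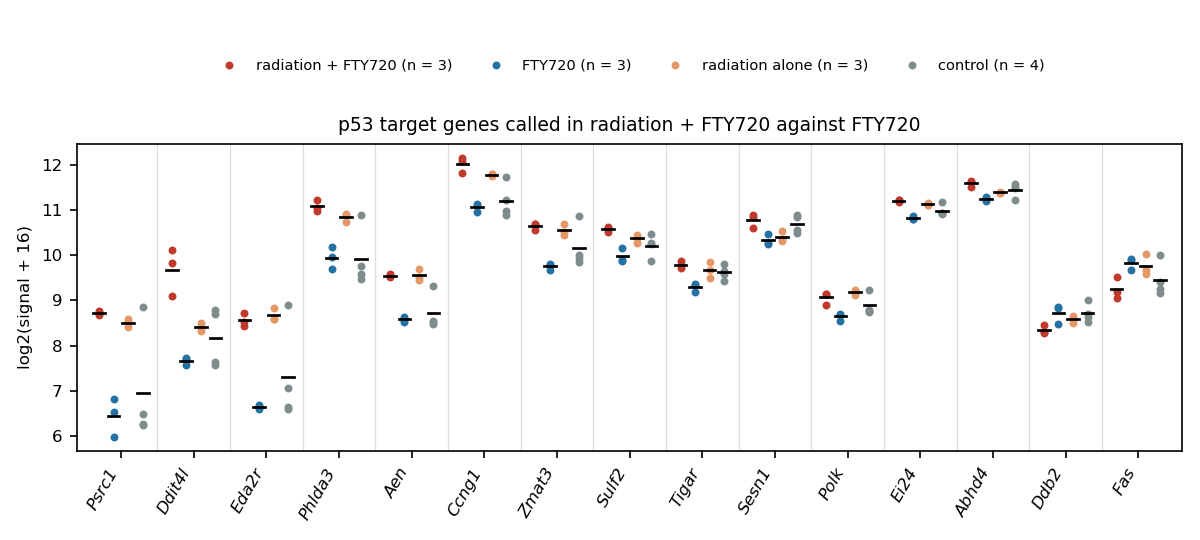
Log2(signal + 16) (y axis) of the 15 called p53 target genes on each array, as dots, in the radiation+FTY, FTY, radiation and control groups, with the group mean as a black bar. Psrc1 lay between 8.67 and 8.76 on the radiation+FTY arrays and between 5.98 and 6.83 on the FTY arrays, and Fas and Ddb2 are the genes that were lower.

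Inducible heat shock genes were lower in the irradiated lungs. Of 17 heat shock genes tested, 5 fell and none rose, with a median difference of -0.19, and all 5 were called whichever radiation+FTY or FTY array was left out. Hspa1a, an inducible Hsp70 chaperone, had 8.78, 8.71 and 8.59 in radiation+FTY, against 11.23, 10.87 and 11.18 in FTY, a difference of -2.40 ± 0.49 (adjusted p = 0.00433). Hspa1b, its near-identical copy, had 10.66, 10.38 and 10.38 in radiation+FTY, against 12.51, 12.25 and 12.45 in FTY (-1.93 ± 0.47, adjusted p = 0.0116). The 3 arrays of each group lay close together and far from the other group in both genes, though probes to copies this similar may not tell them apart. The co-chaperones that pass unfolded proteins to Hsp70 moved the same way. Dnajb1 had 10.06, 10.07 and 10.02 in radiation+FTY against 11.15, 11.05 and 11.27 in FTY (-1.11 ± 0.25, adjusted p = 0.0071). Dnaja1 had 11.71, 11.65 and 11.85 in radiation+FTY against 12.60, 12.46 and 12.53 in FTY (-0.80 ± 0.16, adjusted p = 0.0031). Dnajb4 had 10.89, 10.80 and 11.03 in radiation+FTY against 11.56, 11.46 and 11.38 in FTY (-0.56 ± 0.09, adjusted p = 0.00139). The group mean of Hspa1a was 8.70 in radiation+FTY and 11.10 in FTY, 9.43 in radiation+fTyS and 10.88 in fTyS, 9.33 in radiation+SEW and 10.82 in SEW, and 10.27 in radiation alone and 9.18 in control. The unirradiated groups on a compound thus lay close together, and the control mean was below them. The control arrays were widely spread, with 10.34, 9.40, 8.36 and 8.60 for Hspa1a. For Hspa1b they had 12.19, 11.07, 9.78 and 10.12, so that control array 1 was near the FTY arrays. Under SEW 4 heat shock genes were called lower with radiation. Without both radiation+FTY array 1 and FTY array 3, 3 genes of the list were called.

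Heat shock genes are switched on through heat shock elements, inverted repeats bound by heat shock factor 1, and the promoters of 3 of the 5 genes are shown because they carry one form of that repeat. They are windows of 300 bases of the mouse build GRCm38.p6 from RefSeq, 250 before and 50 after the listed start site, written 5′ to 3′ on the gene's own strand, and capitals mark GAANNTTC, where N is any base and which reads the same on both strands. Hspa1a lies at chr17:34972107-34972406 (minus strand), Hspa1b at chr17:34959189-34959488 (minus strand) and Dnaja1 at chr4:40722218-40722517 (plus strand, the window of 1 of 3 starts listed).
Hspa1a: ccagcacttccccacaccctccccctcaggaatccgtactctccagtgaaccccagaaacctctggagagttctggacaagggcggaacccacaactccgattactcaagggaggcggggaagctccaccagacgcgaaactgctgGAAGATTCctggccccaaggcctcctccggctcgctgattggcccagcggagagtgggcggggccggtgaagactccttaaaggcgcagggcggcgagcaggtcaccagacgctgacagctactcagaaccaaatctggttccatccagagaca
Hspa1b: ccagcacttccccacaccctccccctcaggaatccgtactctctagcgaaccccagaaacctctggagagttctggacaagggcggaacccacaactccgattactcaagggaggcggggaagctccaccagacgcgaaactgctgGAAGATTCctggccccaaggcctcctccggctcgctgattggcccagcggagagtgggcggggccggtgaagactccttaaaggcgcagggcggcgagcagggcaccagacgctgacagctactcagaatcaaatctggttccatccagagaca
Dnaja1: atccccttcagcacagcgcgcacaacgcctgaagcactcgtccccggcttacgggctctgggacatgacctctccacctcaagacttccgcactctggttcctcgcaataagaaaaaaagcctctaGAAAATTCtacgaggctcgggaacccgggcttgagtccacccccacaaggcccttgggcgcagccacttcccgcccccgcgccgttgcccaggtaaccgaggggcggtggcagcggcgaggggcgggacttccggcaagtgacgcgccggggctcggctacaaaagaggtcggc
Counted from the start site, the repeat began at -104 in Hspa1a and in Hspa1b and at -124 in Dnaja1. It was in the promoter of 10 of the 14 heat shock genes with a promoter on file (71.4%), against 6.84% of the tested genes with one and 7.86% of all promoter windows. With 3 of the 5 called genes (60%), the repeat did not set them apart from the rest of the list. A match of letters is a description of the window and not a site of binding.

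Immediate early genes, which are transcribed within minutes of a stimulus, moved in part. Of 25 tested, 5 fell, 1 rose and 19 were not called, with a median difference of -0.20 and 11 members above 0. Nr4a3, an orphan nuclear receptor, had 7.78, 7.77 and 8.19 in radiation+FTY, against 9.97, 9.39 and 9.40 in FTY, a difference of -1.67 ± 0.30 (adjusted p = 0.00201). Thbs1, thrombospondin 1, a matrix protein that activates latent TGF-β, had 9.17, 9.58 and 10.10 in radiation+FTY, against 11.19, 11.27 and 10.84 in FTY (-1.48 ± 0.25, adjusted p = 0.00148). The groups were apart on every array for both genes, though Nr4a3 had -0.62 with its probe sets averaged (adjusted p = 0.00707). Jun, a subunit of the AP-1 transcription factor, fell by 0.40 on the log2 scale (adjusted p = 0.00595). These 3 genes stayed called whichever array was left out, whereas only 3 of the 5 lower genes were called without FTY array 1 or 2 or without radiation+FTY array 1 or 2: Klf4, a zinc-finger factor, was lower by a log2 difference of -0.62 (adjusted p = 0.0228, up to 0.0892), and Nr4a2, a relative of Nr4a3, had -0.80 (adjusted p = 0.0436) and lost its call without any of the 6 arrays. The gene that rose, Ier3, an inhibitor of cell death, had 0.44 and was not called without FTY array 1 (adjusted p = 0.0627).

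Genes driven by the circadian clock were higher, and the clock activator Arntl was lower. Of 18 clock genes tested, 5 rose and 1 fell, with a median difference of 0.15. Dbp, a PAR-domain transcription factor that the clock switches on each day, had 11.19, 11.06 and 11.04 in radiation+FTY, against 7.76, 9.02 and 8.26 in FTY, a rise of 2.75 ± 0.48 (adjusted p = 0.00183). Tef, of the same family, had 11.27, 11.26 and 11.26 in radiation+FTY, against 10.35, 10.61 and 10.37 in FTY (0.82 ± 0.18, adjusted p = 0.00657). Per3, a period gene of the clock's negative arm, had 9.03, 9.24 and 9.30 in radiation+FTY, against 7.92, 8.32 and 7.80 in FTY (1.18 ± 0.30, adjusted p = 0.0146). The 3 genes did not overlap between the groups and were called in every fit that left out 1 array of these groups, with 0.54 for Tef when its probe sets were averaged. Arntl, which encodes the activator Bmal1, had 7.92, 7.91 and 7.78 in radiation+FTY, against 9.47, 9.17 and 9.42 in FTY (-1.48 ± 0.39, adjusted p = 0.0171, up to 0.0528 without FTY array 1). Nr1d1, the repressor Rev-erbα, had 8.60, 8.27 and 8.62 in radiation+FTY against 7.40, 7.79 and 6.94 in FTY (1.12, adjusted p = 0.0122, up to 0.0541 without FTY array 3). Hlf, the remaining PAR-domain factor, had 9.09, 9.29 and 9.03 in radiation+FTY against 8.11, 8.18 and 8.31 in FTY (0.94, adjusted p = 0.0288) and lost its call without any of 4 arrays (adjusted p up to 0.0913). The hour of collection is not given and its part was not tested. The group mean of Dbp was 11.10 in radiation+FTY, 8.35 in FTY, 10.28 in radiation alone, 11.04 in control, 10.65 in radiation+fTyS, 9.64 in fTyS, 10.35 in radiation+SEW and 10 in SEW, so that FTY had the lowest of the 8 means. With the muscle, keratin and T cell list means of each array as covariates, 2 clock genes were called higher and 1 lower, and without both radiation+FTY array 1 and FTY array 3, 1 was called higher.

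The promoter of Per3 is shown because, of the 6 called clock genes, only it held TTATGTAA, a D-box letter string of the kind that Dbp, Tef and Hlf bind, which was searched on both strands. The 300 base window lies at chr4:151044616-151044915 of GRCm38.p6 (minus strand), from RefSeq, with the string in capitals.
Per3: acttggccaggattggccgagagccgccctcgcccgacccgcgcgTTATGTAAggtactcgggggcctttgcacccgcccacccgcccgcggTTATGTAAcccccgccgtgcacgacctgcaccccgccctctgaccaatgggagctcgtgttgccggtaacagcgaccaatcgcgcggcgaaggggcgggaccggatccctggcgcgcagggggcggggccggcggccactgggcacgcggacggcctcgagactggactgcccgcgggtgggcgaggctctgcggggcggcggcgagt
The string began at -205 and -158 from the start site of Per3. It was in 0.643% of the tested genes with a promoter on file and in 0.938% of all windows. The E-box CACGTG, which reads the same on both strands and is bound by Arntl with Clock, was in 5 of the 16 clock genes with a promoter (31.2%), against 11.3% of the tested genes. Of the 6 called clock genes only Tef held it (16.7%). No match says only that these letters are not in a window.

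**Figure D3:**
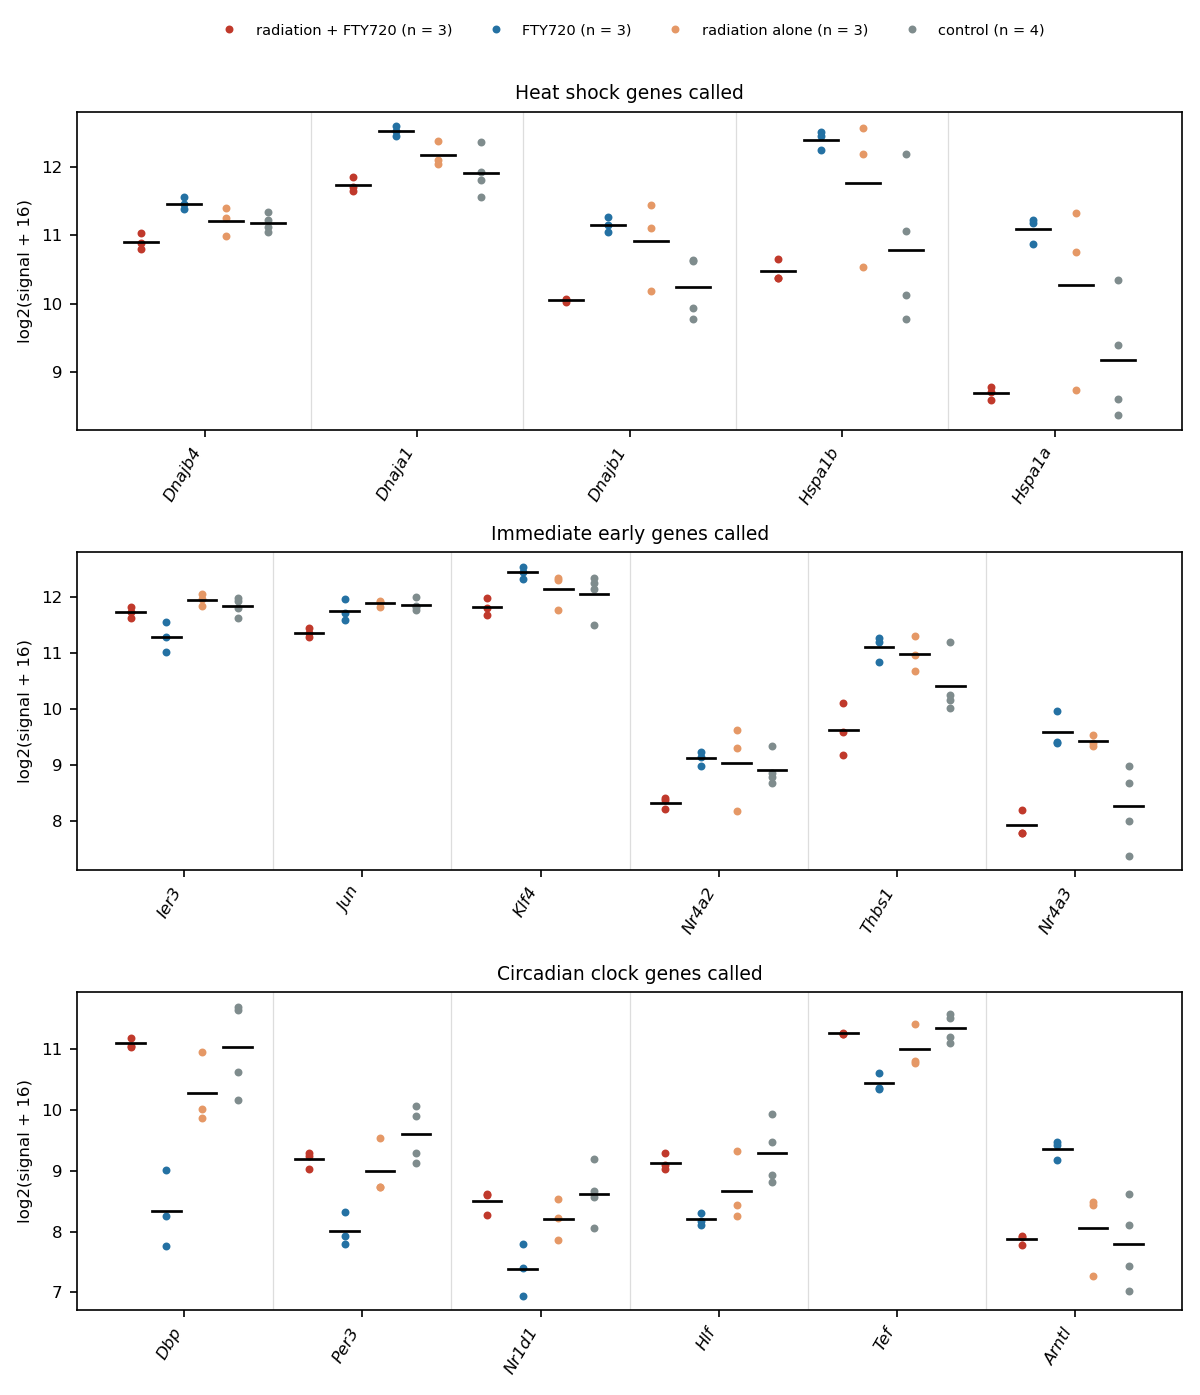
Log2(signal + 16) (y axis) of the called heat shock, immediate early and clock genes on each array, as dots, in the radiation+FTY, FTY, radiation and control groups, with the group mean as a black bar. Hspa1a lay between 8.59 and 8.78 on the radiation+FTY arrays and between 10.87 and 11.23 on the FTY arrays, and Dbp between 11.04 and 11.19 and between 7.76 and 9.02.

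Genes induced by glucocorticoid hormones had a median difference of -0.24, with 3 of 19 tested members called, all lower. Angptl4, a secreted inhibitor of lipoprotein lipase, had 9.08, 8.30 and 10.11 in radiation+FTY against 11.25, 10.93 and 10.87 in FTY (-1.86, adjusted p = 0.0119), and -0.95 with its probe sets averaged (adjusted p = 0.0336). Tsc22d3, the anti-inflammatory protein GILZ, was lower by a log2 difference of -0.71 (adjusted p = 0.0214), and Klf9 by -0.35. All 3 calls were lost without radiation+FTY array 2 (adjusted p of Angptl4 up to 0.0671), and 1 member was called without FTY array 1, FTY array 2 or radiation+FTY array 1, while 5 members were called without radiation+FTY array 3.

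Neutrophil genes were higher in the irradiated lungs. Of 15 tested, 8 rose and none fell, with a median difference of 1.38. Csf3r, the receptor for the growth factor that drives neutrophil production, had 8.12, 9.09 and 9.80 in radiation+FTY, against 6.63, 7.59 and 6.42 in FTY, a rise of 2.12 ± 0.49 (adjusted p = 0.0091). S100a9, a subunit of the antimicrobial protein calprotectin, had 11.04, 11.91 and 12.55 in radiation+FTY, against 9.11, 9.78 and 10.30 in FTY (2.11 ± 0.55, adjusted p = 0.0166). Its partner S100a8 had 11.49, 12.50 and 12.84 in radiation+FTY, against 9.87, 10.59 and 11.05 in FTY (1.77, adjusted p = 0.0187). The groups did not overlap, but the irradiated lungs differed among themselves, with array 3 the highest and array 1 the lowest in all 3 genes. Mmp9, the gelatinase of neutrophil granules, had 8.54, 8.95 and 9.34 in radiation+FTY against 7.71, 7.69 and 7.84 in FTY (1.20 ± 0.28, adjusted p = 0.00972). Fpr2, a receptor for bacterial peptides, rose by 1.34 and Stfa2l1, a stefin-like protease inhibitor, by 2.01. Csf3r, Mmp9 and Fpr2 were called whichever array was left out. Without radiation+FTY array 3 the list had 3 called genes and without FTY array 1 it had 5, with S100a8 at an adjusted p up to 0.0835, S100a9 up to 0.0715 and Stfa2l1 up to 0.054. Another neutrophil surface gene outside the list, Cd177, was among the largest changes, with 9.18, 8.91 and 8.83 in radiation+FTY against 7.55, 6.77 and 7.0 in FTY (1.87 ± 0.36, adjusted p = 0.00291). Members of the list that did not pass were as far from 0 in some cases: Ltf, the granule protein lactoferrin, had -1.50, and Ngp, another granule protein, 1.40. With the muscle, keratin and T cell list means as covariates 5 genes of the list were called, and in a fit of the 6 arrays alone 2 were.

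Genes of monocytes and tissue macrophages were higher too, with 7 of 21 called, none of them lower, and a median difference of 0.50. Ccr2, the chemokine receptor that brings monocytes out of the marrow, had 9.39, 9.94 and 10 in radiation+FTY, against 8.42, 8.75 and 8.47 in FTY, a rise of 1.23 ± 0.22 (adjusted p = 0.00183). Ms4a6c, a monocyte surface protein, had 9.30, 9.34 and 9.50 in radiation+FTY against 8.54, 8.51 and 8.56 in FTY (0.84 ± 0.23, adjusted p = 0.0186). Itgam, the integrin CD11b, had 7.35, 7.58 and 8.0 in radiation+FTY against 6.85, 6.72 and 6.98 in FTY (0.80 ± 0.21, adjusted p = 0.017). None of the 3 genes overlapped between groups, and Ccr2 had 0.72 with its probe sets averaged (adjusted p = 0.0382). Adgre1, the macrophage marker F4/80, Fcgr1, a receptor for antibodies, Ms4a7 and the complement subunit C1qb also rose, by 0.43 to 0.78, the last 3 without a call when probe sets were averaged. The list had 2 called genes without FTY array 2, without radiation+FTY array 3 or without both radiation+FTY array 1 and FTY array 3, and 4 with the covariates or without FTY array 1, FTY array 3 or radiation+FTY array 1. Of 35 cytokines, chemokines and their receptors, 3 rose and none fell, a share below the 9.13% of all tested genes called higher. Il1b, the inflammatory cytokine interleukin 1β, had 8.35, 9.10 and 9.65 in radiation+FTY against 7.84, 7.79 and 7.28 in FTY (1.39, adjusted p = 0.0144). Ccl9, a chemokine of myeloid cells, rose by 1.02 and Ccr1, its receptor, by 1.14. Without FTY array 3 or without radiation+FTY array 3, 1 of these 3 genes was called. Of 14 complement genes, C1qb and the anaphylatoxin receptors C5ar1 (0.88) and C3ar1 (0.55) rose, of which 1 was called without either of the same arrays. Of 17 genes of alveolar macrophages none rose, and Krt79 (-1.03) and Cd9 (-0.24) fell, while the median difference of the list was 0.24, with 12 members above 0. Both calls were lost without FTY array 2 or radiation+FTY array 1.

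Of the 4 S1P receptors tested, S1pr1 fell and S1pr3 rose. S1pr1, the receptor of endothelial cells and lymphocytes, had 9.27, 9.82 and 10.01 in radiation+FTY, against 10.87, 10.98 and 10.27 in FTY, a difference of -1.01 ± 0.28 (adjusted p = 0.0226). S1pr3, which is present on vascular and stromal cells, had 11.14, 11.31 and 11.28 in radiation+FTY, against 10.85, 10.90 and 10.65 in FTY (0.44 ± 0.10, adjusted p = 0.00923). The groups did not overlap for either gene. The S1pr1 call was lost without FTY array 1 or 2 or radiation+FTY array 1 (adjusted p up to 0.113). That of S1pr3 was lost when its probe sets were averaged (0.25, adjusted p = 0.202), and neither receptor was called without both radiation+FTY array 1 and FTY array 3. S1pr2 had a difference of 0.14 (adjusted p = 0.465), S1pr4, a receptor of blood cells, one of 0.00 with a 95% interval between -0.35 and 0.35, and S1pr5 was below the level tested. Of 29 enzymes and carriers of S1P and ceramide, 4 rose and 4 fell, beside 9.13% of all tested genes called higher and 4.99% called lower. Sphk2, one of the kinases that phosphorylate sphingosine and the main one that phosphorylates FTY720, had 8.56, 8.63 and 8.44 in radiation+FTY, against 8.09, 8.02 and 8.08 in FTY, a rise of 0.48 ± 0.09 (adjusted p = 0.00184). Sphk1, the other sphingosine kinase, had a difference of -0.28 (adjusted p = 0.344) and Sgpl1, the lyase that breaks S1P down, 0.15 (adjusted p = 0.35). Cerk, ceramide kinase, and Plpp1, a lipid phosphatase, both fell by 0.52 on the log2 scale. Acer2 and Asah1, which are ceramidases, had -0.38 and -0.20, and Smpd3, a sphingomyelinase, Sgpp1, an S1P phosphatase, and Degs1, a desaturase of ceramide synthesis, had 0.44, 0.22 and 0.16. Other probe sets of Sgpp1 (-0.42 to 0.34) and Degs1 (-0.19) differed in sign, and with probe sets averaged Sgpp1, Degs1 and Acer2 were not called. Sphk2 and Cerk were called whichever array was left out. Without FTY array 1, 2 genes of the list were called higher and 2 lower, without FTY array 2 it was 2 and 1, without radiation+FTY array 1 only 1 was called lower, and without radiation+FTY array 2 or 3 only 2 were called higher.

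**Figure D4:**
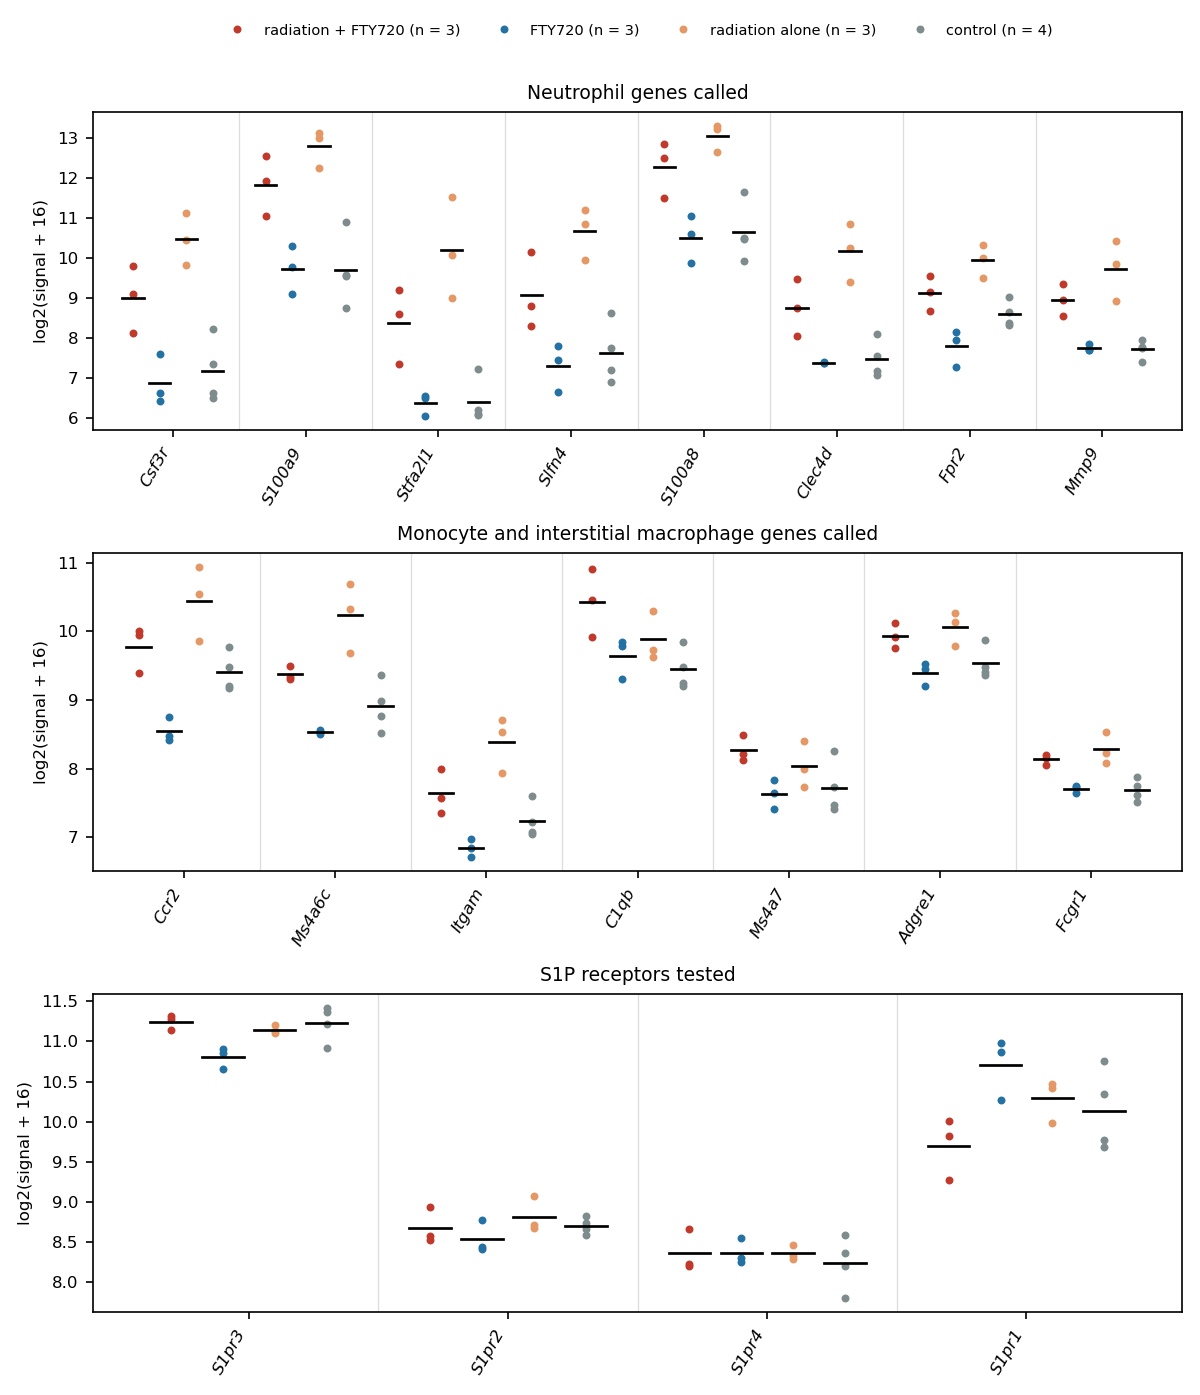
Log2(signal + 16) (y axis) of the called neutrophil genes, the called monocyte genes and the S1P receptors on each array, as dots, in the radiation+FTY, FTY, radiation and control groups, with the group mean as a black bar. Csf3r lay between 8.12 and 9.80 on the radiation+FTY arrays and between 6.42 and 7.59 on the FTY arrays, and S1pr1 between 9.27 and 10.01 and between 10.27 and 10.98.

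Endothelial genes had a median difference of -0.074 with 4 of 37 called, all lower, beside 4.99% of all tested genes called lower. Besides S1pr1 the called endothelial genes were Aplnr, the receptor for apelin, Emcn, the sialomucin endomucin of capillaries and veins, and Sox17, a transcription factor of arterial endothelium. Aplnr had 9.53, 8.99 and 9.14 in radiation+FTY, against 10.72, 10.66 and 10.14 in FTY (-1.29 ± 0.32, adjusted p = 0.0136). Emcn had 9.29, 9.22 and 9.49 in radiation+FTY, against 10.18, 10.37 and 9.73 in FTY (-0.76, adjusted p = 0.00584). Sox17 had 9.85, 10.16 and 10.35 in radiation+FTY, against 10.90, 11.09 and 10.65 in FTY (-0.76 ± 0.17, adjusted p = 0.00707). Every irradiated lung was below every unirradiated one in these genes. The list had 2 called genes without FTY array 1 or 2, and Aplnr was not called without either or without radiation+FTY array 2 (adjusted p up to 0.0543).

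Several metabolic and detoxifying enzymes were higher. Of 22 genes of cholesterol and fatty acid synthesis 4 rose and none fell, with a median difference of 0.21. Fdft1, squalene synthase, had 10.62, 10.40 and 10.45 in radiation+FTY, against 9.87, 9.80 and 9.87 in FTY (0.64, adjusted p = 0.00906). Cyp51, the lanosterol demethylase, rose by 0.54 (adjusted p = 0.00906), Dhcr7, the last enzyme of the pathway, by 0.62 (adjusted p = 0.0226), and Srebf1, which encodes a master regulator of lipid synthesis, by 0.38 (adjusted p = 0.0424). Fdft1 and Cyp51 were the 2 genes called without FTY array 1 or 2 or radiation+FTY array 1 or 2, and no gene of the list was called without both radiation+FTY array 1 and FTY array 3. With probe sets averaged, Fdft1 had 0.34 (adjusted p = 0.0225), and Cyp51 was not called (0.26, adjusted p = 0.0754). Of 29 oxidative stress and glutathione genes 5 rose and 1 fell, with a median difference of 0.14. Ces1g, a carboxylesterase, had 7.66, 8.37 and 7.51 in radiation+FTY, against 6.47, 6.37 and 6.40 in FTY (1.43 ± 0.31, adjusted p = 0.00576). Cbr3, a carbonyl reductase, had 10.86, 10.89 and 10.48 in radiation+FTY against 9.92, 9.84 and 9.81 in FTY (0.88 ± 0.16, adjusted p = 0.00238). Aox3, an aldehyde oxidase, had 9.28, 9.85 and 9.94 in radiation+FTY, against 10.77, 10.84 and 10.58 in FTY (-1.04 ± 0.21, adjusted p = 0.00343). These 3 genes separated the groups on every array and were called whichever array was left out. Srxn1, sulfiredoxin, rose by 0.65, with -0.02 to 0.67 on its 3 other probe sets, and Gsr, glutathione reductase, by 0.58, a call lost with its probe sets averaged (0.32, adjusted p = 0.209), whereas the rise of Gsta2, a glutathione transferase, of 1.20 (adjusted p = 0.0179) was lost without any of 4 arrays (adjusted p up to 0.0703).

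In the airway and its secretions, 3 of 24 genes rose and 3 fell, beside 9.13% of all tested genes called higher and 4.99% called lower. Retnla, a secreted protein of alternatively activated macrophages and airway cells, had 12.67, 12.52 and 12.77 in radiation+FTY, against 11.73, 11.28 and 11.45 in FTY (1.17 ± 0.25, adjusted p = 0.00551). Pon1, the esterase paraoxonase 1, had 9.69, 10.01 and 10.17 in radiation+FTY, against 11.15, 11.09 and 11.03 in FTY (-1.14 ± 0.18, adjusted p = 0.00115). Pigr, which carries IgA across epithelium, had 10.07, 9.39 and 9.25 in radiation+FTY against 11.16, 10.35 and 10.64 in FTY (-1.14 ± 0.27, adjusted p = 0.00994). None of the 3 overlapped between groups. Cyp2f2, the cytochrome of club cells, had a difference of -0.25 (adjusted p = 0.0024) and Scgb1a1, the club cell secretory protein, 0.09 (adjusted p = 0.0433). The higher genes were reduced to 1 without any of FTY arrays 1, 2 and 3 and radiation+FTY arrays 2 and 3. Of 18 type 2 cell genes, 2 were lower, beside 4.99% of all tested genes: Hc, complement C5 (-0.51), and Nkx2-1, a transcription factor of lung epithelium (-0.46). Neither was called without FTY array 2 or radiation+FTY array 1 or 2. No gene was called among 18 of type 1 cells.

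Genes of matrix and its turnover moved in small numbers. Plau, the plasminogen activator urokinase, had 7.34, 8.14 and 7.67 in radiation+FTY, against 6.30, 6.49 and 6.73 in FTY (1.21 ± 0.22, adjusted p = 0.00219), with no overlap. Among 18 proteases and inhibitors it rose with Mmp9, whereas Thbs1, Adamts1, a matrix protease (-0.88), and Plaur, the urokinase receptor (-0.56), fell, of which 1 was called without FTY array 1 or radiation+FTY array 1. Of 35 collagen and matrix genes, Col6a1 (0.39), Col8a1 (0.62) and the crosslinking enzyme Loxl3 (0.53) rose and none fell, a share below the 9.13% of all tested genes called higher. Of these 1 was called without FTY array 3 or radiation+FTY array 3, and Col8a1 was not called with its probe sets averaged (0.26). In the pathway of TGF-β, the cytokine that drives scarring, 4 of 31 genes rose and 6 fell, beside 9.13% and 4.99% of all tested genes. Tgfbi, a matrix protein induced by TGF-β, had 10.94, 11.18 and 11.39 in radiation+FTY against 10.58, 10.69 and 10.57 in FTY (0.56 ± 0.13, adjusted p = 0.00931). Ccn2, connective tissue growth factor, had 11.67, 11.81 and 11.91 in radiation+FTY against 12.37, 12.19 and 12.06 in FTY (-0.41 ± 0.12, adjusted p = 0.0262). Tgfb1 itself had a difference of 0.33 (adjusted p = 0.142). Each single omission left 2 of the 4 higher genes called, and the lower genes numbered 3 without FTY array 1, 2 without FTY array 2 or radiation+FTY array 2 and 1 without radiation+FTY array 1. Of 20 genes of the mesothelium, the lining of the lung surface, 6 rose, led by Lrrn4 (0.83), Upk3b (0.79) and Bnc1 (0.73), and Krt18 fell (-0.28). The higher ones numbered 2 without FTY array 2 or radiation+FTY array 3, 3 without radiation+FTY array 2 and 2 with the muscle, keratin and T cell list means as covariates.

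T cell and cell cycle genes depended on FTY array 3, the array high in both lists. Of 16 T cell genes 2 were lower, Il7r, the interleukin 7 receptor (-0.81), and Cxcr6, a chemokine receptor of tissue T cells, with a list median of -0.42, and of 29 cell cycle genes 2 were lower, Bub1, a mitotic checkpoint kinase (-0.82), and Pcna, the sliding clamp of DNA replication (-0.45), with a list median of -0.22. Without FTY array 3 no gene of either list was called lower, and 4 cell cycle genes and 1 T cell gene were called higher, so the direction of both lists depended on that array. No gene was called among 16 of B cells, 12 of platelets, 11 of class II antigen presentation, 16 of DNA repair and 15 keratins, and 1 of 30 interferon-induced genes was, Ifit3 (0.93), which was not called without FTY array 1, FTY array 3 or radiation+FTY array 1.

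The largest differences among the called genes whose groups did not overlap were in muscle genes. Myh2, a fast skeletal myosin, had 11.71, 6.36 and 12.12 in radiation+FTY, against 5.91, 5.27 and 5.2 in FTY (4.61, adjusted p = 0.035). Myl2, a myosin light chain of heart and slow muscle, had 10.77, 5.59 and 11.36 in radiation+FTY, against 5.42, 5.31 and 5.35 in FTY (3.88, adjusted p = 0.019). Both were near the FTY level on radiation+FTY array 2 and lost their call without array 1 or array 3 of that group. Among the other genes of large change and small error, Prdm8, a transcriptional regulator best known from brain, had 7.89, 8.18 and 7.90 in radiation+FTY, against 6.33, 6.12 and 6.42 in FTY (1.70 ± 0.26, adjusted p = 0.000803). Slc38a4, an amino acid transporter, had 7.44, 7.24 and 7.44 in radiation+FTY, against 9.03, 8.46 and 8.34 in FTY (-1.23, adjusted p = 0.00217), whereas its other probe set had a difference of 0.01 and the mean of both -0.62. Hecw2, a ubiquitin ligase, had 8.61, 8.80 and 9.21 in radiation+FTY, against 10.11, 10.43 and 9.72 in FTY (-1.21, adjusted p = 0.00707). Atp6v1b1, a subunit of the proton pump, had 5.82, 6.22 and 5.53 in radiation+FTY against 7.75, 7.20 and 7.42 in FTY (-1.60, adjusted p = 0.0105).

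The response under FTY720 was set against the response to radiation without a compound, under fTyS and under SEW, which makes 3 pairs of responses at matched doses, with no array shared between responses. By the same test, radiation alone called 569 genes (4.4%), of which 296 (2.29%) were higher and 273 (2.11%) lower. Radiation with fTyS called 59 (0.456%), 43 higher (0.332%) and 16 lower (0.124%), and radiation with SEW 2295 (17.7%), 1788 higher (13.8%) and 507 lower (3.92%). The difference between 2 responses was tested as an interaction and adjusted over all genes within each pair. It was called for 885 genes (6.84%) against radiation alone, of which 617 (4.77%) were higher and 268 (2.07%) lower under FTY720, for 150 genes (1.16%) against fTyS, 102 higher (0.788%) and 48 lower (0.371%), and for 0 genes (0%) against SEW. With SEW, 1064 genes had an unadjusted p under 0.05, and the 95% interval of a gene's difference extended a median of 0.314 to either side, so differences of that size would go unseen. That interval is not adjusted over all genes, and larger differences also went without a call, as for Dbp below. The split against radiation alone depended on scaling, with 358 higher and 407 lower after quantile normalization and 268 higher and 403 lower after median centring. Without control array 4 the number against radiation alone was 829 and radiation alone called 884 genes, and without control array 2, high in muscle and keratin genes, the numbers were 592 and 275. The number against radiation alone was 441 without radiation+FTY array 2, 496 without control array 3, 504 without radiation array 3, 542 to 552 without FTY array 1, FTY array 2 or radiation+FTY array 1 and 582 without radiation array 1. The number against fTyS fell to 0 without fTyS array 2 or radiation+fTyS array 1, to 1 without FTY array 2, to 3 without radiation+FTY array 1, to 29 without radiation+FTY array 2, to 42 without fTyS array 1, to 56 without FTY array 1 and to 61 without radiation+fTyS array 3, and was 630 without fTyS array 3 and 383 without radiation+fTyS array 2.

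For single genes, most p53 targets were not called in the difference between responses. Eda2r rose by 1.93 under FTY720, by 1.38 with radiation alone, by 1.75 under fTyS and by 2.05 under SEW, and the difference was 0.55 against radiation alone, with a 95% interval between -0.52 and 1.62, 0.17 against fTyS (-0.93 to 1.28) and -0.12 against SEW (-1.23 to 0.98). Control array 4 held 8.89 of Eda2r and 8.85 of Psrc1, above all other controls (at most 7.06 and 6.49). Without it the difference of Eda2r from radiation alone was 0.02, with an interval between -0.48 and 0.51, and that of Psrc1 0.09, with an interval between -0.40 and 0.58. Of the 34 targets, Sesn1 (0.76) and Abhd4 (0.40) responded higher and Fas (-0.89) lower under FTY720 than with radiation alone, also without control array 4, whereas Fas was not called without control array 2 (adjusted p = 0.0583), and no target was called in the other 2 pairs. The rise of Sesn1 under FTY720 was itself not called with its probe sets averaged (0.14, adjusted p = 0.254). Radiation alone called 4 targets, all higher, and without control array 4 it called 14 higher and 1 lower, but without control array 2 only Aen. Among the 14 was Mdm2, with 0.31 (adjusted p = 0.00849), whose response under FTY720 was then lower (-0.34, adjusted p = 0.0409; -0.26 and 0.171 with all controls). Cdkn1a rose by 1.68 with radiation alone in that fit (adjusted p = 0.000805), and its difference under FTY720 did not pass (-1.18, adjusted p = 0.0749; -0.74 and 0.418 with all controls). The genes called in all 4 responses depended on the controls, with 27 higher and 6 lower without control array 4, and 1 higher, Slc19a2, and 0 lower without control array 2. With all arrays, called higher in all 4 responses were 6 genes (Aen, Eda2r, Phlda3, Psrc1, Slc19a2, a thiamine transporter, and Ephx1, a detoxifying epoxide hydrolase), and called lower in all 4 was 1, Krt79. In the neutrophil list, radiation alone called 10 genes with a median of 2.07 (11 with 2.09 without control array 4, 10 with 2.36 without control array 2), FTY720 8 with 1.38, SEW 2 with 0.77 and fTyS none with 0.24. The difference of the FTY720 response from radiation alone was called in 1 gene of that list, Trem1, a receptor that amplifies inflammation (-1.08, not called without control array 2), and was -1.17 for Csf3r (adjusted p = 0.303).

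The heat shock, immediate early and clock genes, in contrast, responded differently with FTY720 than with radiation alone. All 5 heat shock genes were called in this difference, also without control array 4 or 2, with -3.50 for Hspa1a (95% interval between -4.90 and -2.09, adjusted p = 0.00707) and -2.90 for Hspa1b (adjusted p = 0.0135). Of the clock genes, 6 were called higher (7 without control array 4 and 5 without control array 2), led by Dbp (3.51, interval between 2.13 and 4.89, adjusted p = 0.00681) and Per3 (1.78), and 1 lower, Nfil3, a repressor of D-box genes (-2.50), which was not called without control array 2 (adjusted p = 0.0532). Of the immediate early genes 4 were called lower (4 without control array 4, and 2, Nr4a3 and Thbs1, without control array 2), with -2.83 for Nr4a3 and -2.06 for Thbs1. Hspa1a averaged 8.70 in radiation+FTY against 11.10 in FTY, and 10.27 in radiation alone against 9.18 in control, where the response itself did not pass (1.10, adjusted p = 0.216). The arrays of radiation alone were split, with 8.73, 10.76 and 11.33 for Hspa1a and 10.53, 12.20 and 12.57 for Hspa1b. Radiation array 1 was thus near the radiation+FTY arrays in both genes. The control arrays were spread too, with 10.34, 9.40, 8.36 and 8.60 for Hspa1a. Against fTyS and against SEW no gene of these lists was called. The difference of Dbp from the SEW response was 2.40 (adjusted p = 0.37). S1pr1 responded with -1.17 relative to radiation alone, which did not pass (adjusted p = 0.0698), and with -0.20 relative to SEW (interval between -1.02 and 0.63), and S1pr3 responded with 0.53 relative to radiation alone (adjusted p = 0.0328), a call lost without control array 4 (0.46, adjusted p = 0.0526) or 2 (adjusted p = 0.0503). Of the cholesterol genes 4 responded higher than with radiation alone, Dhcr7 (1.04), Fdft1 (0.91), Cyp51 (0.74) and Idi1, an isomerase of the pathway (0.53), of which Idi1 was not called without control array 4 (adjusted p = 0.0513) or 2 (adjusted p = 0.0779).

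Of the 1181 genes higher under FTY720, 702 (59.4%) were also called higher under SEW, 39.3% of the SEW calls, and 112 (9.5%) were called higher with radiation alone, 37.8% of its calls. With fTyS 24 (2%) were shared, 55.8% of the fTyS calls. Of the 645 lower genes, 219 (34%) were shared with SEW, 43.2% of its calls, 37 (5.7%) with radiation alone, 13.6% of its calls, and 7 (1.1%) with fTyS, 43.8% of its calls. Among the higher genes 12 were called lower with radiation alone and 1 under SEW, and among the lower genes 4 were called higher with radiation alone and 5 under SEW. Called or not, 51.1% of the higher genes had the same sign with radiation alone, 62.5% under fTyS and 96.3% under SEW. For the lower genes these shares were 52.6%, 63.9% and 91.2%. Without control array 4, radiation alone shared 159 higher genes (13% of those under FTY720 and 37.1% of its own) and 68 lower genes (9.9% and 14.9%), with 26 and 9 called in the opposite direction. Without control array 2 it shared 75 higher genes (6.6% and 50%) and 21 lower genes (3.4% and 16.8%).

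**Figure D5:**
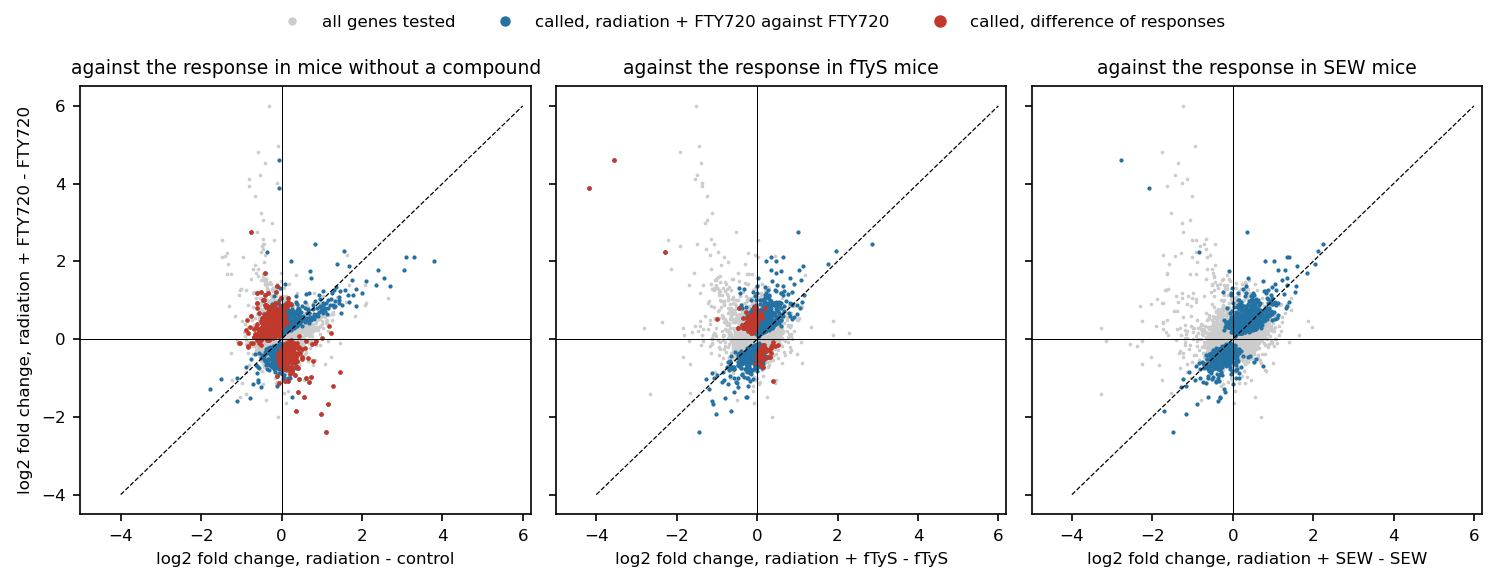
Log2 difference of radiation+FTY minus FTY (y axis) for all 12937 genes against that of radiation minus control, radiation+fTyS minus fTyS and radiation+SEW minus SEW (x axes), with genes called under FTY720 in blue, genes called in the difference of responses in red and the line of equality dashed. Red points number 885 in the first panel, 150 in the second and 0 in the third.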

How the data were processed

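Total RNA of mouse lung was hybridised to Affymetrix arrays as biotin-labelled cRNA, per the labels' protocols. Per probe set and array, the authors deposited a linear signal intensity made with GCOS, per the submitters' processing notes. The version, summary method and scaling are not given in the sources used here. Of 45101 probe sets, 64 controls, 932 with several gene symbols and those with none were left out, and the probe set of highest mean stood for each of 18193 genes. Values became log2(signal + 16), and genes at or below the 40th percentile of mean level (6.49) were left out, which left 12937. One limma fit (limma 3.58.1, R 4.3.3, 8 group means over all 25 arrays, eBayes with trend, 17 residual degrees of freedom) gave two-sided tests, adjusted by Benjamini-Hochberg over all genes within each comparison, with genes called at an adjusted p of at most 0.05. SEs are those of the fit. It was tested on simulated data of independent normal noise without outlying arrays, so its error rate with such arrays was not tested.

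Named are the 15 largest increases and the 15 largest decreases among called genes with no overlap between groups, the 5 largest in each direction of a difference of responses (or the 5 of smallest p), members of 41 gene lists (984 entries, 905 on the array, 817 tested) and a fixed set of p53 and S1P genes. Members, lists and tests were chosen with earlier results of these data known, and the heat shock motif, the D-box motif and the genes Trem1, Idi1, Ltf, Ngp, Ephx1 and Slc19a2 were singled out after values were seen. Alternatives were quantile normalization, median centring, other pseudocounts and filters, averaging a gene's probe sets, eBayes without trend, array weights, covariates, a block for the replicate number, fitting the compared arrays alone and omitting each array in turn. Covariates of the muscle, keratin and T cell lists, and leaving out radiation+FTY array 1 with FTY array 3, were added after the data were seen, as was leaving out control array 4 from all comparisons. Promoters are from RefSeq tables of GRCm38.p6, matched by symbol.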

Additional observations from a re-analysis of the deposited data

Results flagged for a closer look

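The radiation response under FTY720 differed from the response without a compound in 885 genes by the interaction test. The largest such differences were 3.51 for Dbp, 2.11 for Prdm8, 1.78 for Per3, 1.72 for Gsta2 and 1.56 for Hlf, where the response was higher under FTY720, and -3.50 for Hspa1a, -2.90 for Hspa1b, -2.83 for Nr4a3, -2.50 for Nfil3 and -2.31 for Igha, the constant region of IgA, where it was lower. The response under FTY720 differed from that under fTyS in 150 genes. The largest of these differences were in the muscle genes Myh2 (8.16), Myl2 (8.07) and Myh7 (4.51), which were high on radiation+FTY arrays 1 and 3 and which had differences of -3.55, -4.19 and -2.28 between radiation+fTyS and fTyS, where the muscle list means were 6.33, 10.65 and 7.76 on the radiation+fTyS arrays against 7.03, 11.92 and 9.98 on the fTyS arrays. They were followed by 1.52 for Wt1, a transcription factor of mesothelium, and 1.28 for Slc2a3, a glucose transporter. Lower under FTY720 were the transcription factors Creb5 (-1.46) and Klf10 (-0.86), the zinc-finger genes Zfp948 (-0.81) and Zfp60 (-0.80) and Thoc2l (-0.78). Control array 2 lay far from the other 3 controls in keratin genes, with a gap that was 0.964 of the group's range (mean 9.63), and in skeletal muscle genes, with a gap of 0.944 of the range (mean 10.68). Chance alone flags about 1 in 20 groups in this way.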

How the results depend on the processing

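The count of 1826 genes for radiation+FTY against FTY was 605 in a fit of only the 6 arrays and 739 without radiation+FTY array 1 and FTY array 3, and ran between 932 and 1532 when 1 array was left out. The other alternatives stayed within 1.5 times it. The difference from radiation alone (885) had 522 calls when a gene's probe sets were averaged, 1741 with array weights, 449 with the Gapdh ratio as a covariate, 375 with only the arrays compared, 394 without those 2 arrays, and 441 to 1165 when 1 array was left out. The difference from fTyS (150) had 75 calls with median centring, 67 without a filter, 2938 with array weights, 0 with only the arrays compared, 5 without those 2 arrays, and 0 to 630 when 1 array was left out. The difference from SEW (0) had 196 with array weights, 1 with muscle and fat covariates, 1 with only the arrays compared, 1 with the muscle, keratin and T cell covariates, 2 without those 2 arrays, and 0 to 6 when 1 array was left out. The cause was not tested. Of the 147 named genes that were called, 1 changed sign in some alternative, Degs1, at -0.016 when its probe sets were averaged, a setting in which 27 of the 147 were not called. Of the 56 others, 13 changed sign without being called. Of the 30 of largest change 15 lost their call without some array. Arrays of the same replicate number had residual correlations of 0.222, 0.378 and -0.113, and arrays of different numbers between -0.435 and 0.190. With 3 arrays in each group, these values cannot tell whether the numbers pair the arrays. Leaving out control array 4, also added after the data were seen, gave 1909, 829, 157 and 0. With the replicate block the counts were 1782, 768 against radiation alone, 120 against fTyS and 0 against SEW.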

Other observations

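In the difference from the response under SEW, where no gene was called, the genes of smallest p were Itgb6, an integrin of injured epithelium that activates TGF-β, with -1.10, Thbs3, a thrombospondin, with -0.85, Pik3r3, a regulatory subunit of PI3-kinase, with -1.03, Inhbb, the inhibin βB subunit, with -0.69, and Phtf1 with -0.38, at adjusted p-values between 0.133 and 0.157. In each the response to radiation was lower under FTY720 than under SEW.

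Between radiation+SEW and SEW, 14 of the 34 p53 target genes were higher and 1 lower, with a median difference of 0.36, and between radiation+fTyS and fTyS 8 were higher, with a median of 0.27.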
